A study of Mus musculus with 2 samples.

Results

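Vascular endothelial growth factors and their receptors were followed in ureter explants treated with BIO, which the study used as an activator of WNT signaling. WNT activity in these explants was not examined here. The set comprised 9 genes, chosen by name. They were the ligand genes Vegfa, Vegfb, Vegfc and Pgf, the receptor genes Kdr, Flt1 and Flt4, and the co-receptor genes Nrp1 and Nrp2. Every probe of the array that carries 1 of these names was used, which gave 14 of 39429 probes, 5 for ligands, 6 for receptors and 3 for co-receptors. All 14 passed the filter on dim probes.

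Both groups consisted of wildtype NMRI mouse ureters, explanted at E12.5, of undetermined sex, and kept for 18 h on membranes. The treated group received 10 µM BIO (6-bromoindirubin-3-oxime), an inhibitor of the kinase GSK3 that stabilizes β-Catenin. The control group received only the solvent, DMSO, diluted 2:1000. RNA of pooled ureters was amplified, labeled and hybridized to 2 arrays, each of which held 1 BIO and 1 control pool. On the first array (replicate 1) BIO was read in red, and on the second (replicate 2) in green. Since each value comes from a whole organ, fewer cells of a type and less RNA per cell cannot be told apart.

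VEGF ligands are secreted dimers that act on receptor tyrosine kinases of endothelial cells. VEGFA signals mainly through the receptor encoded by Kdr (VEGFR2), which drives endothelial growth and sprouting. Flt1 (VEGFR1) binds VEGFA, VEGFB and PGF tightly and acts largely as a trap, partly as a soluble form. VEGFC acts through the receptor of Flt4 (VEGFR3), which is best known from lymphatic and sprouting vessels. The neuropilins NRP1 and NRP2 are co-receptors that also bind class 3 semaphorins and occur outside the endothelium.

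Several members are represented by more than 1 probe. The probe sites matter for what is read, since Flt1 gives transcripts with different ends. The first 30 of the 60 bases of the probes of Kdr and Flt1 and of the brighter probe of Vegfa are shown, because the results on receptors and on the main ligand rest on them. They run 5′ to 3′ in the sense of the transcript, all on the minus strand of mm9, and no base is marked. The exon or intron in which each lies was not determined here.
Kdr, brighter probe, chr5:76329309-76329368: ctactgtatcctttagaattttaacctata
Kdr, dimmer probe, chr5:76330395-76330454: tgtttaaatggaagtggtcctgtcccggct
Flt1, probe of NM_010228, chr5:148373791-148373850: aagtaaagaaaagctatcgggattctctgg
Flt1, probe of ENSMUST00000110529, chr5:148446872-148446931: ggagggtactgccgttcctgtgtggtattt
Flt1, probe of AK005502, chr5:148465976-148466035: tccctatcccaactacacattcaatcttct
Vegfa, brighter probe, chr17:46154387-46154446: cagatcggtgacagtcactagcttgtcctg

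BIO lowered the receptor genes Kdr, Flt1 and Flt4, the ligand genes Vegfc and Pgf and the co-receptor gene Nrp2, whereas Vegfa, Vegfb and Nrp1 did not pass the test in either direction. Of the 14 probes, 9 were changed, all of them downward, when limma p-values were adjusted over all 28824 probes tested and held to 0.05. Among all probes tested 23.2% were changed, and 14.3% fell. No member probe rose by the adjusted p, compared with 8.95% of all probes. By role, 2 of 5 ligand probes, 5 of 6 receptor probes and 2 of 3 co-receptor probes fell. The median log2 ratio of BIO over control was -0.06 for ligand probes, -1.19 for receptor probes and -0.90 for co-receptor probes. Over all probes tested it was -0.01. The ligand value is that of the brighter Vegfa probe, as Vegfa has 2 of the 5 ligand probes. With each gene at its brightest probe, the medians were -0.46 for ligands, -1.94 for receptors and -0.73 for co-receptors. By gene, 2 of 4 ligands, 3 of 3 receptors and 1 of 2 co-receptors fell.

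**Figure D1:**
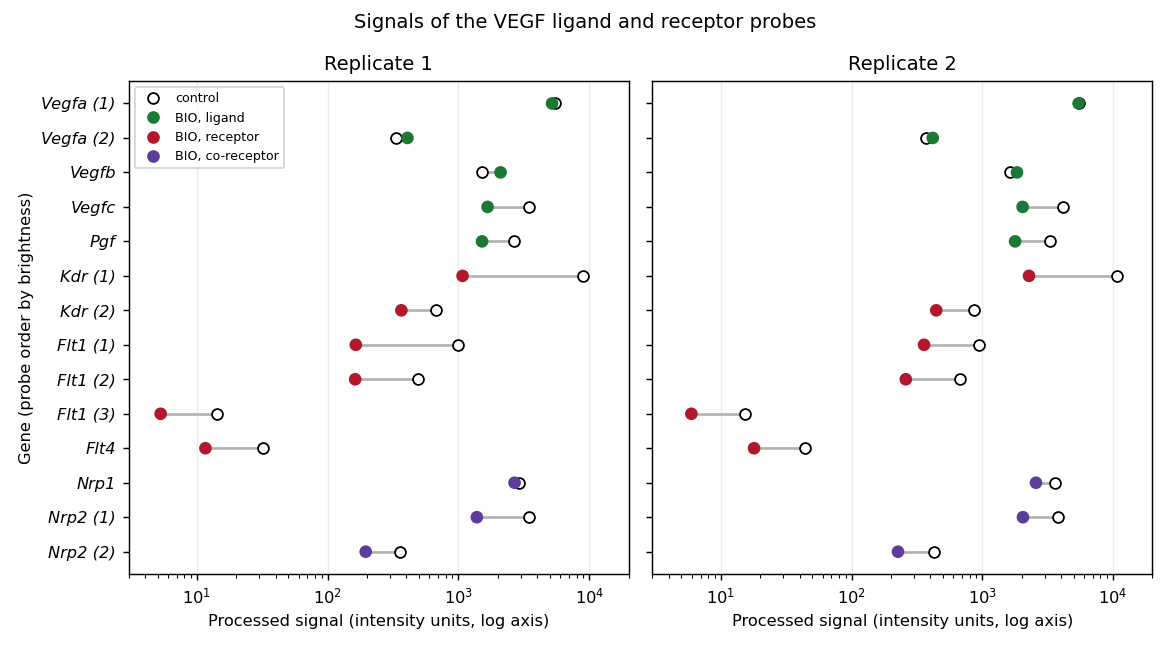
Processed signals (intensity units, log axis) of the 14 probes in control (open circles) and BIO (filled circles, colored by role), with 1 panel per array and no error bars, since each point is 1 pool. Numbers in brackets order the probes of a gene by brightness. The signals of the brighter Vegfa probe nearly coincide on both arrays, while those of Kdr, Flt1 and Flt4 lie lower with BIO.

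The largest fall was that of Kdr. At its brighter probe the processed signal was 8961 (control) and 1075 (BIO) on the first array, and 10716 and 2276 on the second. BIO thus left 12.0% and 21.2% of the control signal, and the 2 control values lay above both BIO values. The log2 ratio was -3.10 and -2.16, on average -2.63 ± 0.20 (moderated SE, n = 2, limma adjusted p 0.000116). This SE and those below are drawn by limma toward the spread common to all probes tested. They are not the SE of the 2 array ratios alone, which differed here by 0.94. With the deposited value table the ratio was -2.64 and did not pass (limma adjusted p 0.160). Ordered from the lowest ratio, Kdr stood at rank 10 of 20338 genes, each taken at its brightest probe.

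The dimmer probe of Kdr is listed for the same transcript, NM_010612, and lies 1.09 kb from the first. Its processed signal was 672 (control) and 366 (BIO) on the first array, and 867 and 444 on the second. This probe fell as well, but to 54.5% and 51.2% of control, with a log2 ratio of -0.94 ± 0.11 (moderated SE, n = 2, limma adjusted p 0.000663). The brighter probe was lower than the dimmer probe by log2 ratios of -2.15 in replicate 1 and -1.23 in replicate 2, and no test of this difference was made. The spots of each of these probes within an array had SDs between 0.03 and 0.07 (log2).

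Flt1 fell at 2 of its 3 probes. The probe of NM_010228, the transcript of the full-length receptor, had processed signals of 988 (control) and 164 (BIO) on the first array, and 945 and 358 on the second. The log2 ratio was -2.54 and -1.34, on average -1.94 ± 0.24 (moderated SE, n = 2, limma adjusted p 0.000887). Among the 14 probes this ratio differed most between the arrays, by 1.20. It was 5.84-fold in replicate 1 alone and 2.53-fold in replicate 2 alone.

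A second Flt1 probe is listed only for the transcript ENSMUST00000110529 and lies 73.08 kb upstream of the probe of NM_010228 in the direction of transcription. It had processed signals of 493 (control) and 162 (BIO) on the first array, and 671 and 260 on the second. Its log2 ratio was -1.56 and -1.34, on average -1.45 ± 0.11 (moderated SE, n = 2, limma adjusted p 0.000141). With the value table the ratios of these Flt1 probes were -1.98 and -1.45 and did not pass (limma adjusted p 0.229 and 0.101). Both Flt1 probes therefore fell. The ratio of the first minus that of the second was -0.99 in replicate 1 and -0.01 in replicate 2, and this difference was not tested.

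The third Flt1 probe, listed for the placental clone AK005502, was dim. Its processed signal was 14.3 (control) and 5.28 (BIO) on the first array, and 15.2 and 5.96 on the second, and it was not well above background with BIO on either array. The log2 ratio of this probe was -0.32 and -0.37, on average -0.34, and did not pass the test at an adjusted p of 0.0529 (limma). Across the ways of making the ratios its mean ran from -1.51 to 0, so the size of a fall cannot be given.

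Flt4 was dim too. Its processed signal fell from 32.1 to 11.6 in replicate 1 and from 44.0 to 18.0 in replicate 2, and with BIO only 1 of the 2 arrays read it well above background. The log2 ratio was -0.58 and -0.67, on average -0.62 ± 0.11 (moderated SE, n = 2, limma adjusted p 0.00492). An offset added to each channel pulls ratios of dim probes toward 0, and with the processed signals the log2 ratio of Flt4 was -1.44. The direction was downward with each of the 5 other ways of making the ratios, and the call was lost with the deposited value table (limma adjusted p 0.126).

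**Figure D2:**
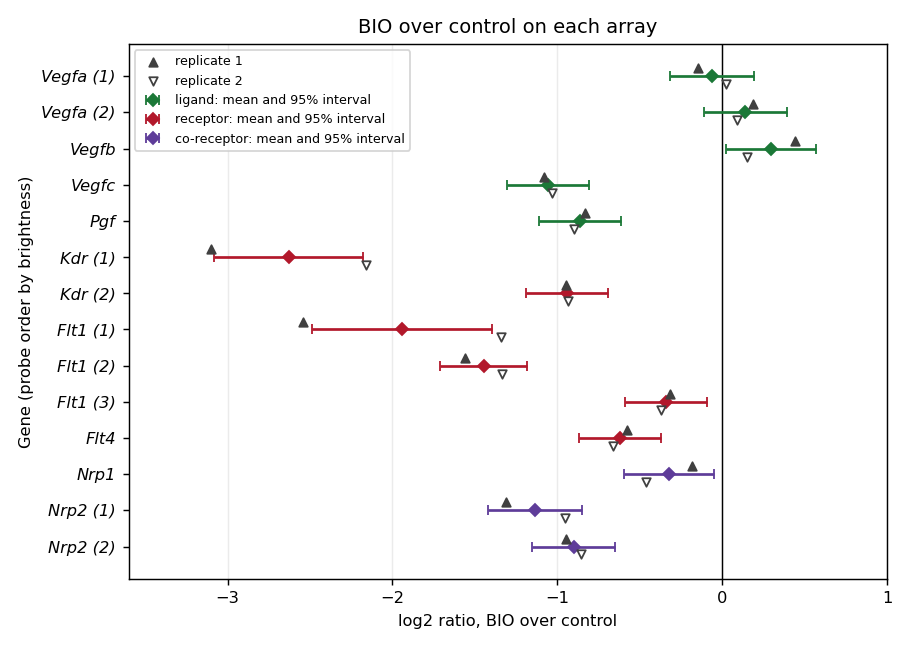
The log2 ratio of BIO over control (horizontal axis) of the 14 probes in replicate 1 (filled triangles) and replicate 2 (open triangles), with the mean of both arrays (diamonds) and its 95% interval from limma. The intervals of both Vegfa probes include 0, while the brighter probe of Kdr lies at -3.10 and -2.16.

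The ligands divided into genes that fell and genes for which no change was called. Vegfa, the main ligand of Kdr, had a processed signal at its brighter probe of 5455 (control) and 5197 (BIO) on the first array, and 5502 and 5448 on the second. The log2 ratio was -0.15 and 0.02, with a mean of -0.06 (95% interval -0.32 to 0.19) and an adjusted p of 0.738 (limma). A fall or rise larger than these bounds is thus outside the interval, while smaller changes could not be resolved with 2 arrays.

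The dimmer Vegfa probe had processed signals of 335 and 407 in replicate 1 and of 373 and 418 in replicate 2, control first. Its log2 ratio was 0.14 (95% interval -0.11 to 0.39), with an adjusted p of 0.411 (limma). The 2 probes of Vegfa had means of opposite sign, and neither was called under any of the other ways of making the ratios.

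Vegfb, a ligand that binds the receptor of Flt1 but not that of Kdr, had a processed signal of 1505 (control) and 2098 (BIO) on the first array, and 1633 and 1842 on the second. BIO was the higher channel on both arrays. The log2 ratio of 0.29 ± 0.12 (moderated SE, n = 2) did not pass the test, with an adjusted p of 0.115 (limma).

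Vegfc and Pgf were the ligand genes that fell. The processed signal of Vegfc, the ligand of the receptor encoded by Flt4, was 3473 (control) and 1671 (BIO) on the first array, and 4132 and 2032 on the second. The log2 ratio was -1.08 and -1.04, on average -1.06 ± 0.11 (moderated SE, n = 2, limma adjusted p 0.000382). BIO thus left 48.1% and 49.2% of the control signal, and the arrays differed by a log2 ratio of 0.04 only.

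Pgf, a ligand of the receptor encoded by Flt1, had a processed signal of 2641 (control) and 1515 (BIO) on the first array, and 3299 and 1781 on the second. Control lay above BIO in every pairing. The log2 ratio was -0.83 and -0.90, on average -0.87 ± 0.11 (moderated SE, n = 2, limma adjusted p 0.000994). The coordinates of this probe span 2003 bases on chromosome 12, more than the 60 bases of its sequence, so its ends lie farther apart in the genome than in the probe.

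The neuropilins differed in their calls. The processed signal of Nrp1 was 2902 (control) and 2686 (BIO) on the first array, and 3569 and 2572 on the second. Its log2 ratio was -0.18 and -0.46, with a mean of -0.32 ± 0.12 (moderated SE, n = 2), and did not pass the test at an adjusted p of 0.0866 (limma). Nrp2 fell at both of its probes.

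The brighter Nrp2 probe had processed signals of 3454 (control) and 1383 (BIO) on the first array, and 3812 and 2045 on the second. Its log2 ratio was -1.31 and -0.96, on average -1.13 ± 0.12 (moderated SE, n = 2, limma adjusted p 0.000541). With the value table it was -1.12 and did not pass (limma adjusted p 0.160). The dimmer Nrp2 probe, listed for other transcript variants (NM_001077406 and NM_001077407), fell from 359 to 195 in replicate 1 and from 424 to 226 in replicate 2. Its log2 ratio was -0.90 ± 0.11 (moderated SE, n = 2), with an adjusted p of 0.000846 (limma). The difference between the calls of Nrp1 and Nrp2 was not itself tested.

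For comparison, a rule after the intensity and fold-change limits that the study used for further arrays was applied, here taken as a ratio of 2-fold or more that has the same sign on each array and a processed signal of 100 or more in the brighter channel. At their brightest probes, 3 of the 9 genes were lower by this rule, Kdr, Flt1 and Vegfc, and 0 were higher. Over all genes tested the shares were 2.16% lower and 1.08% higher. Pgf and Nrp2 missed it, and Flt4 did not reach the signal of 100.

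Markers of the cell types of the explants were set beside the members. Of 12 endothelial markers, all 12 fell, with a median log2 ratio of -1.80 and the lowest, -2.48, for Sox17. Erg, at -0.67, had processed signals of 3.40 and 9.63 with BIO and was well above background there on 1 of 2 arrays, so its ratio is no firm end of the range. The next highest marker was Tie1 at -1.22. Over all genes tested, 15.3% fell and 9.06% rose. The summed processed signal of the 12 markers was 32013 and 38966 in the control channels and 7309 and 12814 in the BIO channels, and none was at 0 in control, with the lowest signals, 23.5 and 23.6, for Erg. The log2 ratio of Flt1 (-1.94) lay within the range of these markers, among which Cdh5 had -2.32, Pecam1 -2.13 and Emcn -2.07. That of the brighter Kdr probe (-2.63) was near Sox17, lower on the first array (-3.10 against -2.76) and not on the second (-2.16 against -2.20), while that of the dimmer Kdr probe (-0.94) was above every endothelial marker except Erg. The part of endothelial cell number in the falls of the receptors was not tested.

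Markers of other cell types also fell in part. Of 10 markers of the ureteric mesenchyme 7 fell (median -0.56), of 10 markers of the ureteric epithelium 5 fell (median -0.35), and of 5 pericyte markers 3 fell (median -0.67). In their summed processed signals, control exceeded BIO on both arrays, with 270156 against 167924 and 287448 against 190417 for the mesenchyme, 87714 against 52093 and 89226 against 61602 for the epithelium, and 13972 against 10147 and 15308 against 11173 for pericytes. A few bright genes carry most of these sums. In control on the first array they were Col3a1 (70916), Col1a1 (63032) and Bmp4 (50650) for the mesenchyme. For the epithelium they were Krt18 (28778) and Krt8 (28018), and for pericytes Rgs5 (7395) and Notch3 (5855). In the mesenchyme list the mean ratios ran from -2.17 for Pdgfrb to -0.16 for Foxf1. Foxf1 had opposite signs on the arrays, -0.80 in replicate 1 and 0.48 in replicate 2, so its mean is no firm end of the range. The epithelium list ran from -1.24 for Krt19 to 0.02 for Epcam, and the pericyte list from -1.84 for Rgs5 to 0.34 for Notch3. Tbx18, which defines the ureteric mesenchyme, was present at 9371 and 10572 in control and had a log2 ratio of -0.22, and Epcam was present at 4219 and 3974. Foxf1, Epcam, Notch3 and Tbx18 were not called. Of 6 macrophage markers 3 fell (median -0.38, from -1.75 for Cx3cr1 to 0.08 for Mrc1), and of 5 neural and Schwann markers 2 fell (median -0.35, from -0.53 for Elavl4 to 0.26 for Tubb3). No gene of these 5 lists rose.

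Of 3 lymphatic endothelial markers tested, only Pdpn fell, by 0.73 on the log2 scale. Prox1, listed here as a lymphatic endothelial marker, had processed signals of 106 and 126 in control and 127 and 145 with BIO. It was not called (log2 ratio 0.11, limma adjusted p 0.509). Lyve1 was not called either (-0.43, limma adjusted p 0.0970), and its arrays differed, with -0.77 in replicate 1 and -0.08 in replicate 2. Whether the number of lymphatic cells changed was not tested. The summed signal of the 3 markers was 2805 and 3059 in control and 1727 and 2055 with BIO, most of it from Pdpn, which also occurs outside lymphatic vessels.

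**Figure D3:**
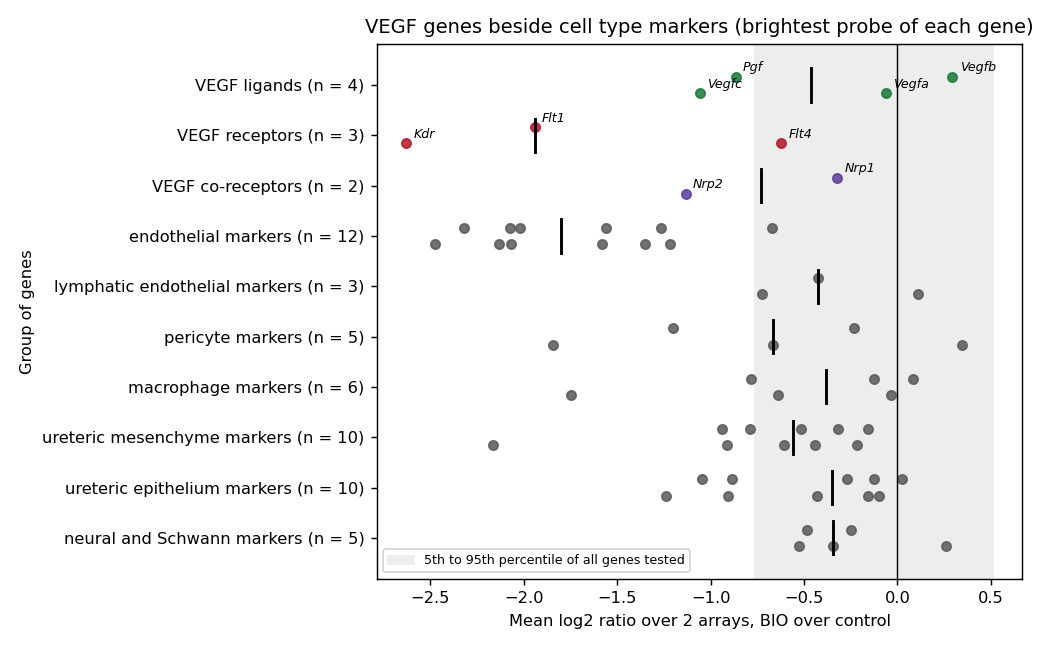
Mean log2 ratio of BIO over control over 2 arrays (horizontal axis) for the 9 VEGF genes by role and for the markers of 7 cell types, each gene at its brightest probe. Points are genes, black bars are medians, and the shaded band holds the ratios between the 5th and 95th percentile of all genes tested (-0.76 to 0.51). Flt1 lies within the range of the endothelial markers, Kdr near the lowest of them, an order that differs between the arrays, and Vegfa at -0.06.

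Other genes of the pathway were counted from fixed lists, each gene at its brightest probe. The counts of these lists are to be read beside the shares over all genes tested, 15.3% fallen and 9.06% risen. No test of a list was made. Of 10 genes, comprising the ligand gene Figf and genes of ligand processing and oxygen sensing, 4 fell and 1 rose (median log2 ratio -0.19, compared with -0.01 over all genes). Figf, the gene of the remaining ligand VEGFD, fell by 0.72 on the log2 scale (limma adjusted p 0.00712). For the maturation of VEGFC, the protease gene Adamts3 fell (-0.76), whereas Ccbe1, whose product assists this protease, rose by 0.90 ± 0.11 (SE, limma adjusted p 0.000931). Of the oxygen-sensing genes, Epas1 (HIF2A, -1.88) and the prolyl hydroxylase gene Egln3 (-1.74) fell. Hif1a (-0.20), Arnt (-0.03), Vhl (-0.13), Egln1 (-0.19) and Hif1an (0.03) did not pass the test.

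Of 20 genes that transmit signals of the receptors, 6 fell and 1 rose, with a median of -0.17. Nos3, the nitric oxide synthase of endothelium, fell by 2.17. The other falls were smaller, with -0.73 for Nfatc1, -0.72 for Prkcb, -0.65 for Fyn, -0.52 for Pxn and -0.51 for Plcg2. The adaptor gene Gab1 rose by 0.38 (limma adjusted p 0.0407). Plcg1, which encodes the phospholipase that binds activated VEGFR2, did not pass the test, with -0.15 and processed signals of 6948 and 7743 in control and 6577 and 6942 with BIO.

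Of 13 regulators of the receptors, 4 fell and none rose (median -0.26). They were Cdh5, also counted among the endothelial markers, Efnb2 (-0.68), the endothelial phosphatase gene Ptprb (-0.64) and Ptpn6 (-0.41). Of 13 partners of the neuropilins, 4 fell and 2 rose, with a median of -0.09. Among the semaphorin genes, Sema3a rose by 1.13 ± 0.11 (SE, limma adjusted p 0.000294) and Sema3c by 0.44, while Sema3g (-1.97) and Sema3d (-1.14) fell. Of the plexin genes, Plxnd1, known from endothelium, fell by 1.69, and Plxna4 had a log2 ratio of -0.54 and fell too.

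Of 10 genes that VEGF induces in endothelial cells, 9 were tested, of which 6 fell and 1 rose, with a median of -1.20. Flt1 is among them. Esm1, a marker of the tips of sprouting vessels, had processed signals of 4495 (control) and 420 (BIO) on the first array, and 4938 and 1467 on the second. It fell by 2.57 ± 0.31 (SE, limma adjusted p 0.000817). Dll4 (-1.83), Angpt2 (-1.56), Hlx (-1.20) and Apln (-0.63) fell as well. Nr4a1 rose by 0.52, Rcan1 (-0.00) and Dusp5 (-0.28) did not pass the test, and Egr3 was not well above background.

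The genes whose pair of array ratios lay nearest to that of Kdr were Gimap6, Ctla2a, Thbd, Sox7 and Brinp1, at distances between 0.10 and 0.30 (Euclidean distance over 2 log2 ratios, among 17336 genes). Thbd encodes thrombomodulin. The nearest to Vegfa were 0610039H22Rik, Rab11fip3, Senp2, Zbtb24 and Nek3, at distances up to 0.0072. With 2 arrays, this likeness rests on 2 values per gene.

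As context for the receptor genes, the 250 bases upstream of their transcription start are shown, from RefSeq (GRCm38.p6), 5′ to 3′ in the direction of transcription. All 9 genes had an entry. Capitals mark matches, on either strand, to the letters CCGGAA of ETS factors, CTTTGA of TCF/LEF factors, GGGCGG of SP factors and ACGTG of the hypoxia response.
Kdr, minus strand, chr5:75978456-75978705: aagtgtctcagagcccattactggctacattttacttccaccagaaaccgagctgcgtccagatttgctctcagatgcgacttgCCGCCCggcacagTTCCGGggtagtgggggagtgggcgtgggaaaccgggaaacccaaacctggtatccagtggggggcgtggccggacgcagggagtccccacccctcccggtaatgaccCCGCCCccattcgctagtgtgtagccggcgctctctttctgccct
Flt1, minus strand, chr5:147726012-147726261: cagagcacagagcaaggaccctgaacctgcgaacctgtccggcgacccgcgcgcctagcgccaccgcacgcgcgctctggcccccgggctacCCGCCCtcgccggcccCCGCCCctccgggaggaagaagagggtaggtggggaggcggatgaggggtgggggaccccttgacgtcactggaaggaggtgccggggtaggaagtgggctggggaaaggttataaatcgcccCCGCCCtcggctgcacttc
Flt4, plus strand, chr11:49609429-49609678: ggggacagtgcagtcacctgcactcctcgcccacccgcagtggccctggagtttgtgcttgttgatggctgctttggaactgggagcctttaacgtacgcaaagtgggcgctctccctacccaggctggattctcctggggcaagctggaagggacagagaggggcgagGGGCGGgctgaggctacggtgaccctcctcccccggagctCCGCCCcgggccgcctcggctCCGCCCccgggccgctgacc

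The letters of SP factors matched 2 times upstream of Kdr, 3 times upstream of Flt1 and 3 times upstream of Flt4, and 32.7% of 32851 mouse promoters of this length hold at least 1 such match. The ETS letters matched 1 time upstream of Kdr and in no other of the 9 genes, against 12.0% of all promoters. The TCF/LEF letters, which 13.8% of promoters hold, matched in this window only for Nrp2 among the 9 genes. The hypoxia letters, found in 16.6% of promoters, matched only in 1 of the 2 windows of Vegfa. That window (chr17:46025164-46025413, minus strand) belongs to the start lying farther downstream in the gene. The window of the upstream start (chr17:46032378-46032627) held no such match. These matches are a description of the letters.

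**Figure D4:**
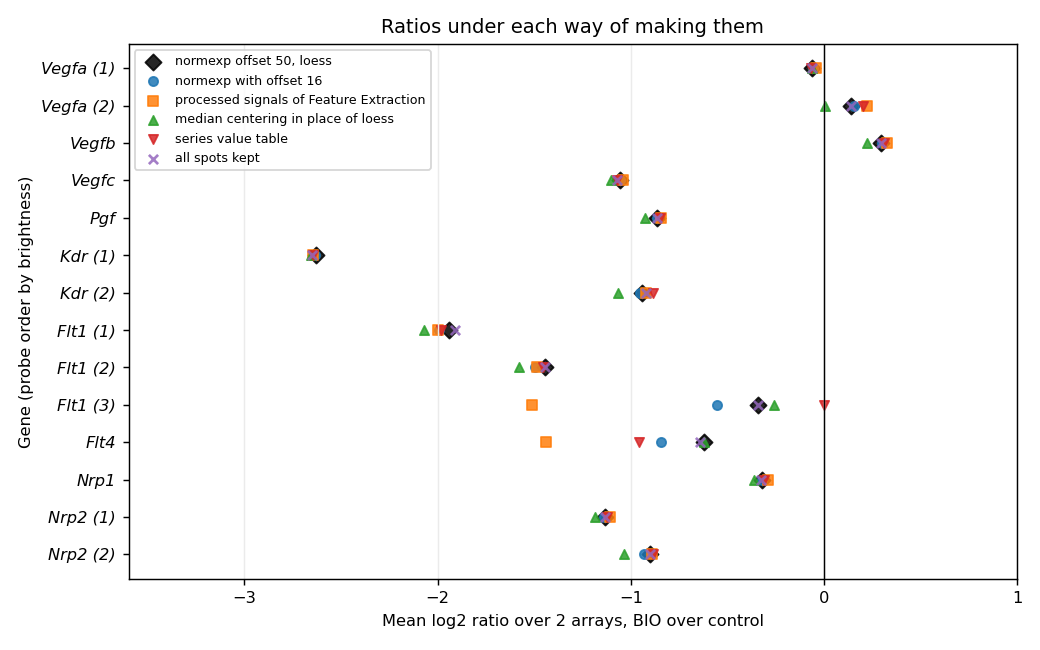
Mean log2 ratio of BIO over control (horizontal axis) of the 14 probes when the ratios were made in 6 ways, the black diamond standing for the values given in the text. The points of a probe lie close together except for Flt4 and the third probe of Flt1, the dimmest ones, which reach -1.44 and -1.51 with the processed signals, and the latter lies at 0 with the series value table.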

How the data were processed

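RNA of E12.5 ureter explants was measured on 2 Agilent 2-color arrays, and the channels of each array, BIO and control, were compared. As the file headers show, the authors quantified the scans with Feature Extraction 10.7.3.1 on a design with mm9 coordinates and 4 spots per probe. The deposited scanner files hold mean spot and local background intensities without normalization, and processed signal intensities that were background-subtracted, detrended and dye-normalized. A deposited value table holds 1 score per probe, a signed fold change whose making is not stated. Set against the processed ratios (signed log2), it had a correlation of 0.912 in replicate 1 and 0.939 in replicate 2, which settled its direction, while its centering is unknown. Its median was 1 on both arrays.

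The mean intensities underwent normexp correction (limma 3.58.1, R 4.3.3, offset 50) and loess within each array, with weight 0 for control and outlier spots. Outliers made up 3.49% and 3.16% of the biological spots and were left out, and 0 biological spots were saturated. Spots were averaged per probe. Probes well above background (share of spots over 0.5) in the control or the BIO channel of both arrays were tested, 28824 of 39429. The dye-swapped array was turned, and lmFit with eBayes tested whether the ratios differ from 0 (two-sided, Benjamini-Hochberg threshold 0.05). The median SE was 0.11, and the number of arrays limits the precision. No dye term was fitted, since 2 arrays cannot bear it. For the 2-fold rule, processed signals under 15 were set to 15 and the ratios median-centered. The code of the test was run on simulated ratios, with spreads drawn from the limma fit to these data and no dye effect. That run cannot show how reliable the calls from 2 arrays are.

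Labels and methods give 2 pools per group, and each array was taken as 1 replicate. In replicate 1, 80.9% of spots were well above background in control and 70.1% with BIO, and in replicate 2 73.7% and 78.1%, the green channel being higher on both. Genes were named as in the scanner files, and all 9 member symbols are in RefSeq (GRCm38.p6). Every member probe was reported. The sequence of the dimmer Vegfa probe is not reported here. Of the pathway lists, the genes past the threshold were named, up to 8 in each direction, and of the marker lists the highest and lowest gene. For Kdr and Vegfa the 5 nearest genes were named. Cdh5, Tie1, Emcn and Pecam1 as endothelial markers, Tbx18, Lyve1, Plcg1 and the pathway genes named as not passing were chosen after their values were seen. The members and lists were chosen with earlier results of these data known. Alternatives were another offset, the processed signals, median centering, the value table, all spots, no filter, the mean of a gene's probes, other minima and single arrays.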

Additional observations from a re-analysis of the deposited data

How the results depend on the processing

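Of 70 ratios of member probes recomputed in 5 other ways, 0 reversed a call, 5 lost it and 3 gained it. All 5 losses came with the value table, for the brighter probe of Kdr (-2.64), 2 probes of Flt1 (-1.98 and -1.45), Flt4 (-0.96) and the brighter probe of Nrp2 (-1.12), and the 3 gains were those of the Flt1 probe of AK005502. The 9 member probes changed became 4 with the value table and stayed between 9 and 10 otherwise. Of all probes tested, 6696 changed, compared with 3532 with median centering and 4334 with the value table, where 41.0% of the changed probes were lower, against 61.5% here and 70.9% with median centering. The genes changed over all lists were 61, and 19 with the value table. The cause of these losses was not tested. The member genes past the 2-fold rule, 3, were 5 with 1.5-fold and 1 with 3-fold, and 3 without replicate 1 and 4 without replicate 2. Shares over all genes under these changed settings were not computed, so these counts have no comparison. Median centering shifted the median ratio by -0.21 in replicate 1 and 0.06 in replicate 2. On each single array all called probes kept their sign. The test is itself paired, since it uses the ratio of both channels of an array, and no further block was fitted. Signal over background limits the dim probes of Flt4 and of Flt1 (AK005502), whose size depends on the background correction.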
